A study of Mus musculus with 6 samples.

Results

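The miRNAs of the imprinted Dlk1-Dio3 region of mouse chromosome 12 were read here through 72 of the 599 miRNA probes of an array. A probe was included when its name carried 1 of 48 miRNA names of the region, in any arm or star form. The rule used no measured value, but it was chosen with earlier results of these data known. The 72 probes covered 48 hairpins, 24 of them with both arms. RNA came from cultures of arteriolar smooth muscle cells (aSMCs) of mouse kidney, a primary line at passage 7 of mixed 129Sv/C57Bl6 strain that descends from cells of the renin lineage. The 3 control cultures were untreated, with no vehicle named. The 3 forskolin cultures received 10 µM forskolin, which activates adenylyl cyclase, together with 100 µM IBMX, which blocks the breakdown of cyclic AMP, for 24 h. They then received 10 µM forskolin once more for 30 min before harvest. Each culture was grown and harvested on its own, all from the same primary line, and the series title gives the induction of renin as the aim of the treatment. RNA of controls 1 and 3 and of forskolin 2 was stained with Cy3, and RNA of control 2 and of forskolin 1 and 3 with Cy5.

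The Dlk1-Dio3 region is imprinted, so its genes are read from the chromosome of only 1 parent. Dlk1, Rtl1 and Dio3, which code for proteins, are expressed mainly from the paternal chromosome. Meg3, Rian, Mirg and the transcript antisense to Rtl1 are non-coding, come from the maternal chromosome, and carry the miRNAs. These miRNAs are known for high levels in the embryo, the placenta and the brain. Mature miRNAs guide Argonaute proteins to messenger RNAs mainly through the seed, bases 2 to 8.

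A single member, miR-329, stood far above the empty spots in every sample. The target sequences of its probe, of the probes next to it along the chromosome and of the 1 other probe with its seed are shown because the results turn on them. They are written 5′ to 3′ with the seed in capitals.
miR-758: uUUGUGACcugguccacua
miR-329: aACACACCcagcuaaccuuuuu
miR-494: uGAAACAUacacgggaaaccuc
miR-362-3p: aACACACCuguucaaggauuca
The sequences are the targets that the array files list, and each of these equals a mature miRNA of RefSeq (GRCm38.p6). miR-329 lies at chr12:109713541-109713562 on the plus strand, miR-758 before it at chr12:109712858-109712876 and miR-494 after it at chr12:109715367-109715388. miR-362-3p comes from chromosome X and is no member. The seed and the base before it form a run of 8 bases that miR-329 and miR-362-3p share, and the longest run that any other target shares with miR-329 was 9 bases, in miR-574-3p.

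Of the 72 targets, 67 equalled a mature miRNA of RefSeq, and the other 5 matched within a RefSeq hairpin. All 72 lay on the plus strand of chromosome 12, from miR-770-5p at the Meg3 end (chr12:109563710-109563731) to miR-410 at the Dio3 end (chr12:109743764-109743784). By the RefSeq gene spans, 2 targets lay inside Meg3, 18 across from Rtl1, 2 inside Rian and 12 inside Mirg, and 38 lay in none of these. The targets were 19 to 25 bases long and had 71 distinct seeds. Only miR-376b* and miR-376c* shared a seed, which is shown in capitals.
miR-376b*: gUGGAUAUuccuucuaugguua
miR-376c*: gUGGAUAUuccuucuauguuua
A run of letters was shared more widely than any seed. ACACGG, searched on the RNA strand of each target, occurred in 5 of 72 members (6.94%) and in 0 of the 527 other targets of the array. These 5 arms are shown with the run in capitals, as an example of how alike members of the region can be.
miR-411*: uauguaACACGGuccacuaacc
miR-323-3p: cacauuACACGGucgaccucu
miR-494: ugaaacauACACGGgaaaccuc
miR-485*: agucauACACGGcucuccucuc
miR-154*: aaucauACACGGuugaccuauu
The run was noticed in the sequences and has no bearing on a test.

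Signal over empty spots was the mean intensity of the 5 spots of a probe minus the mean of the 669 empty spots of the same sample. A probe counted as detected where that signal exceeded 3 times the SD of the empty spots. The empty spots averaged 131 to 200.1 in the Cy3 samples and 31.6 to 34.9 in the Cy5 samples, so signals of different dyes have different scales. The threshold of detection was a signal of 42.8, 5.55 and 42.9 in controls 1 to 3, and of 13.7, 21.2 and 14.8 in forskolin 1 to 3. In forskolin 2 the SD of the empty spots was 7.07, beside 14.3 in each of controls 1 and 3, the other Cy3 samples. The median probe of the array lay 12.6 and 27.4 above the empty spots in these controls, below their thresholds. Forskolin 2 stood apart: the median probe lay 34.7 above the empty spots there, beyond its lower threshold. For that reason detection was also taken against the 300 dimmest miRNA probes of each sample, with the same 3 SDs. These 300 were taken from all miRNA probes, cluster members included, so a probe among them could hardly pass. miR-143 and miR-145, known from smooth muscle, gave signals of 2417 or more in every sample. miR-145* was dimmer, from 6.19 in control 2 to 235 in control 3, and was detected in all 6 samples. All 5 mesenchymal probes, of miR-199a, miR-199b and miR-214, were detected in all 6 samples as well. Of 7 probes of neural miRNAs, miR-128 was detected in all samples and the other 6 in forskolin 2 alone. Outside forskolin 2, 0 of 9 epithelial, 0 of 2 endothelial, 1 of 7 blood, 1 of 6 striated muscle and 2 of 4 kidney tubule probes were detected. None of these marker lists held a probe that passed the test of forskolin against control. With 3 samples a group, precision is limited by their number. In a culture, fewer cells that make a miRNA and less of it in each cell cannot be told apart.

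Most of the cluster was not well above background in these cells. In the controls 1, 3 and 4 of the 72 probes were detected, and in forskolin 1, 2 and 3 the numbers were 1, 70 and 5. The share of the cluster was 1.39% to 6.94% outside forskolin 2, where 30.6% to 41.9% of the 527 other probes were detected. In forskolin 2 it was 97.2% of the cluster and 97.7% of the others. Against the 300 dimmest probes the cluster had 2, 3 and 3 detected probes in the controls and 3, 2 and 6 in forskolin 1 to 3, between 2.78% and 8.33%. By that measure 28.5% to 41.4% of the other probes were detected. The 70 of forskolin 2 thus went to 2 when the background was taken from miRNA probes. Since dim members are themselves part of that background, low counts by this measure are in part set by the rule.

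**Figure D1:**
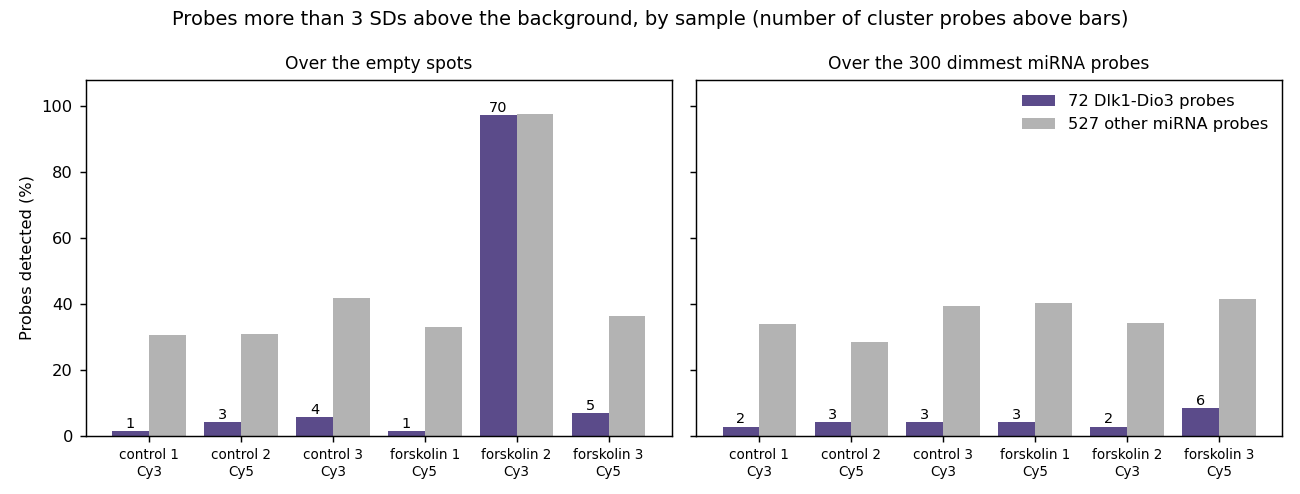
Percentage of probes detected in each sample, for the 72 cluster probes (dark bars, with their number above) and the 527 other miRNA probes (grey bars), with the background from empty spots on the left and from the 300 dimmest miRNA probes on the right. The cluster stays at 8.33% or less in every sample except for the 97.2% of forskolin 2 on the left.

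Member by member, 1 probe (miR-329) was detected over the empty spots in all 6 samples, 2 in 3 samples, 5 in 2 samples and 2 in none. The other 62 were detected in forskolin 2 and in no other sample. Of all probes on the array, 25.2% passed in each of the 6 samples, and 27.9% in every control or every forskolin sample. Outside forskolin 2, 8 members were detected at least once: miR-329, miR-379, miR-377, miR-134, miR-453, miR-376b, miR-494 and miR-540-5p. Of these, 7 belong to the run from miR-379 to miR-410, which holds 49 probes, and miR-540-5p to the stretch from miR-770-5p to miR-665, which holds 10. None of the 10 probes from miR-431 to miR-136* and none of the 3 from miR-341 to miR-882 was detected there. Against the dimmest probes, 61 of 72 members were detected in no sample.

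**Figure D2:**
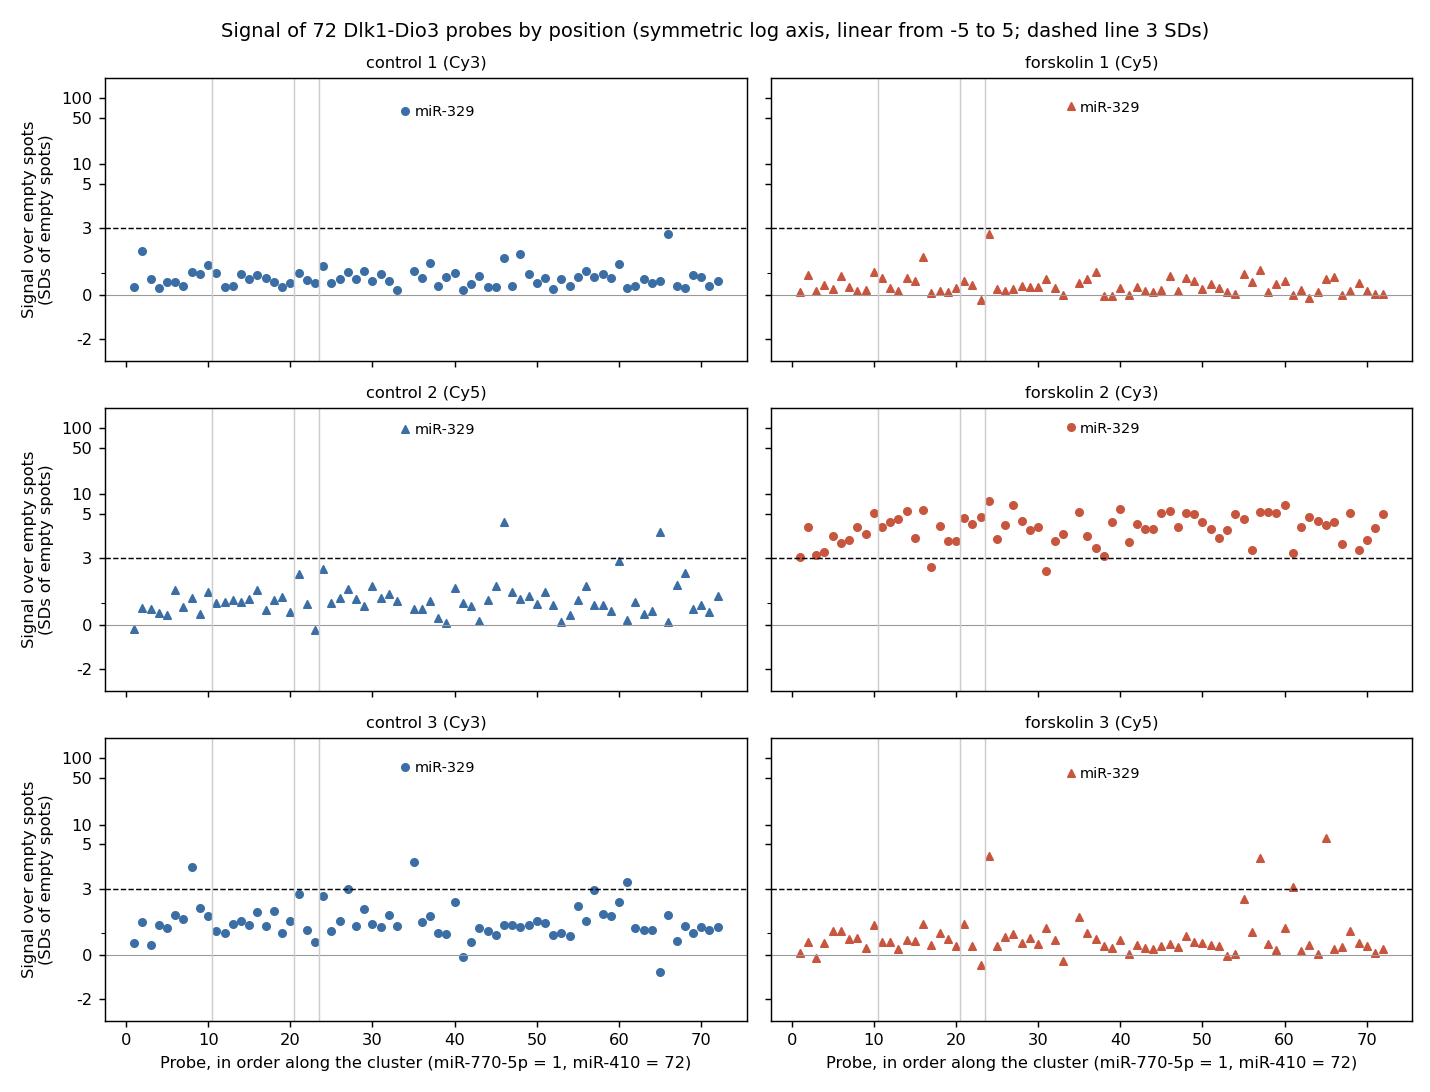
Signal over empty spots of each cluster probe in multiples of the SD of the empty spots (symmetric log axis), by the order of the probes along chromosome 12 from miR-770-5p to miR-410, with a panel per sample. Grey lines part the stretches from miR-770-5p to miR-665, from miR-431 to miR-136* and from miR-341 to miR-882, and the run from miR-379 to miR-410. miR-329 lies at 60.7 to 104 SDs in all panels. In forskolin 2, where the SD of the empty spots was 7.07 beside 14.3 in the other Cy3 samples, the cluster lies around a median of 4.45 SDs.

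The median signal of the 72 probes was 10.1, 1.89 and 19.1 in controls 1 to 3 and 1.38, 31.4 and 2.63 in forskolin 1 to 3. The median of the 527 other probes was 13.3, 2.55 and 30.1 in the controls and 2.89, 35.6 and 5.20 in the forskolin samples, a higher value in each of the 6. Apart from miR-329 the members ranged from 3.07 to 39.1 in control 1, from -0.471 to 8.65 in control 2 and from -11.4 to 60.4 in control 3. In forskolin 1 to 3 they ranged from -1.16 to 12.4, from 17.2 to 56.5 and from -2.41 to 30.7. In SDs of the empty spots, the cluster median lay between 0.304 and 1.33 outside forskolin 2. The 4 stretches of the cluster had similar medians within a sample. In control 1 they were 8.90 from miR-770-5p to miR-665, 9.29 from miR-431 to miR-136*, 9.35 from miR-341 to miR-882 and 10.4 from miR-379 to miR-410. In forskolin 3 they were 3.19, 2.93, 1.97 and 2.44, in the same order.

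At the Meg3 end, miR-770-5p, from a hairpin inside Meg3, gave signals of 5.16, -0.375 and 7.87 in controls 1 to 3 and of 0.555, 21.7 and 0.379 in forskolin 1 to 3. miR-665, the last probe before the miR-431 hairpin, gave 19.005, 2.72 and 25.2 in the controls and 4.75, 37.7 and 6.57 in the forskolin samples. Both were below the threshold in every sample except forskolin 2. miR-540-5p was detected in control 3, at 56.8, and in forskolin 2, at 31.4, and its signals in the other 4 samples were 14.4, 2.23, 0.648 and 3.76. In control 3 its 5 spots ranged from 34.2 to 97.1, and 3 of them passed the threshold.

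Antisense to Rtl1 lies miR-127, known from the mouse as a repressor of the Rtl1 messenger RNA, to which it is fully complementary. miR-127 gave 12.6, 2.87 and 27.6 in the controls and 7.70, 40.9 and 6.90 in the forskolin samples. Its other arm, miR-127*, gave 10.3, 2.19 and 19.02 in the controls and 2.78, 27.9 and 3.00 in the forskolin samples. Over the empty spots both were detected in forskolin 2 alone, and against the dimmest probes miR-127 was detected in forskolin 1 alone. Further along, miR-341 gave 14.0, 4.27 and 39.2 in the controls and 2.81, 34.1 and 6.90 in the forskolin samples. miR-370 gave 9.35, 1.73 and 15.8, then 1.98, 32.2 and 1.97, and miR-882 gave 7.72, -0.471 and 7.91, then -1.16, 34.6 and -2.41. None of these 3 passed in a sample other than forskolin 2, and miR-882 was among the 2 lowest members by the median over samples.

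The run from miR-379 to miR-410 opens with miR-379, which came nearest to detection after miR-329 by the median of signal over SD. With the median of the spots in place of their mean, miR-377 (2.44) came just before miR-379 (2.40). The signals of miR-379 were 18.8, 4.67 and 38.0 in the controls and 12.4, 56.5 and 22.0 in the forskolin samples. In SDs of the empty spots these were 1.31, 2.52 and 2.66, then 2.73, 7.99 and 4.46. The values of control 3 (Cy3) and forskolin 1 (Cy5) were close, and their dyes have different scales. Over the empty spots it was detected in forskolin 2 and 3. Against the dimmest probes it was detected in 3 of 3 forskolin and 0 of 3 control samples, as were 2 of the 599 probes (0.334%). After normalization its log2 intensity was 6.39, 6.58 and 6.37 in the controls and 6.60 in each forskolin sample, where it held the same rank. Forskolin and control values did not overlap, but control 2 came within 0.02 of the forskolin level (log2). Detection against the dimmest probes let 29.7% of all probes and 2 members, miR-329 and miR-379, into the test. miR-379 entered through its forskolin samples alone, so no test of it under this filter is given. The fits over all 599 probes, described below, include it.

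miR-134, known from neurons for limiting the size of dendritic spines, gave 11.2, 1.68 and 42.2 in the controls and 5.15, 38.8 and 21.6 in the forskolin samples. It was detected in forskolin 2 and 3 and missed the threshold in control 3. miR-377 gave 8.91, 7.77 and -11.4 in the controls and 3.14, 32.0 and 30.7 in the forskolin samples, with detection in control 2 and forskolin 2 and 3. The value below 0 came from 1 spot of control 3, at -149.3, while the median of its 5 spots there was 21.5. miR-382 gave 11.7, 2.04 and 31.5, then 4.21, 33.9 and 12.4, and passed over the empty spots in forskolin 2 only. In SDs of the empty spots, each of these 3 probes was higher in forskolin 2 and 3 than in forskolin 1. The median of the whole cluster was so as well, at 0.304, 4.45 and 0.535 SDs in forskolin 1 to 3.

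Some of the other detections rested on single spots. miR-453 gave 3.98, 0.412 and 47.2 in the controls and -0.173, 22.9 and 15.0 in the forskolin samples, and passed in control 3 and forskolin 2 and 3. The same spot of the layout read 186 in control 3 and 72.4 in forskolin 3, and the medians of the 5 spots were 10.8 and 1.31. miR-376b gave 23.5, 8.65 and 19.3, then 3.93, 39.7 and 2.45. Its call in control 2 rested on 1 spot at 31.4, where the median was 3.72. The same spot of the layout read 80.4 in forskolin 2, where the median was 28.1. A further spot read 74.8 in control 1 and 13.5 in forskolin 1. By the median of the spots, 7 members were detected outside forskolin 2 in place of 8, without miR-453 and miR-376b and with miR-409-3p, which passed in control 2. A spot of miR-541 read 153 in control 1 and 14.3 in forskolin 1, against medians of 12.4 and 1.84; this member was picked after its values were seen. Over the array 21 spots deviated by more than 1 log2 unit from their probe's median in both samples of a replicate number, 1 of them in the cluster, and 0 did so in any other pair of samples.

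**Figure D3:**
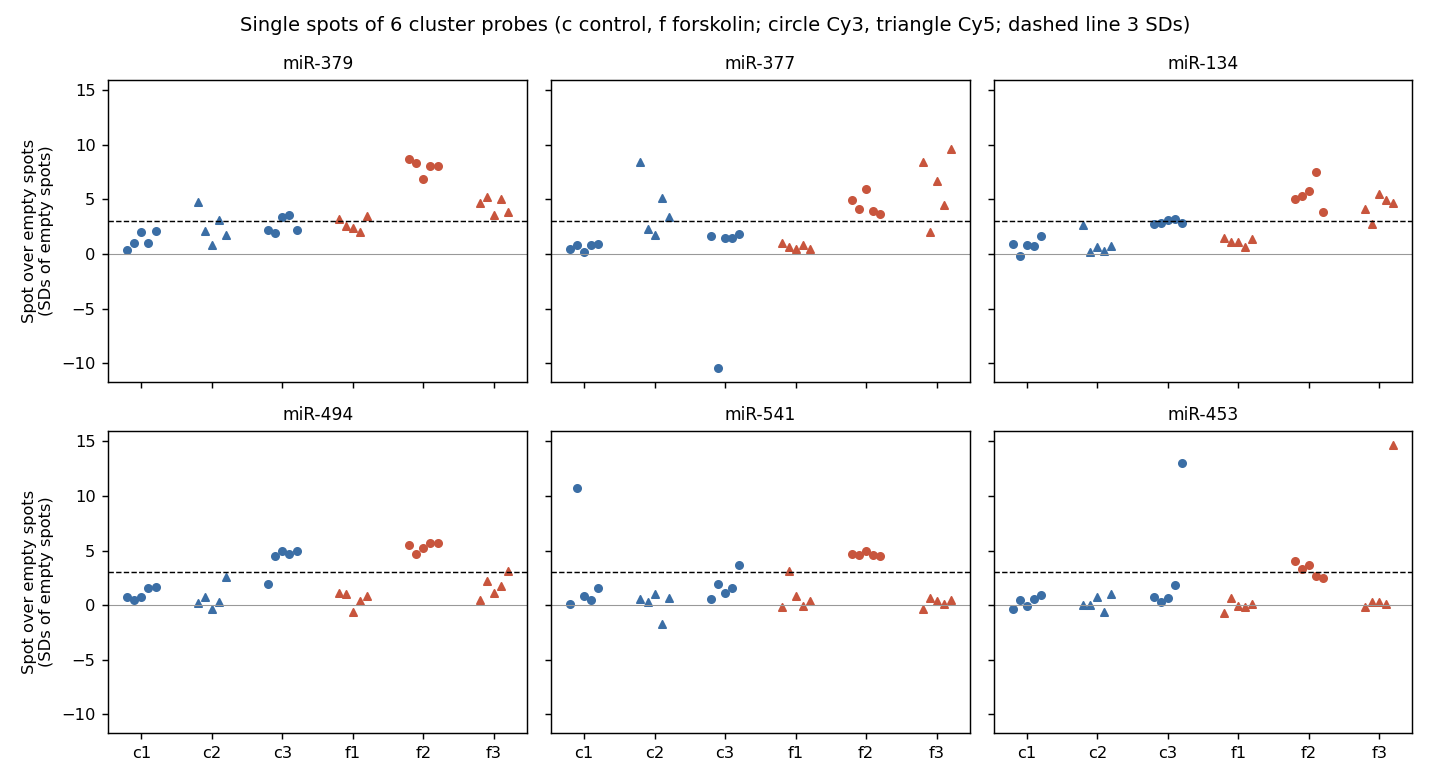
Each of the 5 spots of miR-379, miR-377, miR-134, miR-494, miR-541 and miR-453 in each sample, in SDs of the empty spots above their mean. Most values of miR-379, miR-134 and miR-494 rest on several spots, while miR-453 in control 3 and forskolin 3 and miR-541 in control 1 have a single high spot.

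Next to miR-329, miR-494 gave 15.0, 1.30 and 60.4 in the controls and 2.46, 37.9 and 8.52 in the forskolin samples. It was detected in control 3 and forskolin 2, and 4 of its 5 spots passed in control 3. miR-758, on the other side, gave 3.07, 2.01 and 18.6, then -0.0802, 29.1 and -1.38, below the threshold except in forskolin 2. miR-485*, an arm with the ACACGG run, gave 19.7, 5.31 and 34.5, then 2.71, 49.1 and 5.91. miR-376c*, the other of the 2 lowest members, gave 3.07, 1.80 and -1.53, then 0.0106, 26.4 and 0.160. In control 3 a single spot of miR-376c* read -72.0 and the median of its 5 spots was 16.3, and by spot medians it was not among the 2 lowest. miR-410, at the Dio3 end, gave 8.87, 2.39 and 18.1, then 0.168, 36.0 and 1.16. These last 3 passed in no sample except forskolin 2.

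miR-329 was the exception in the cluster. Its signal was 922, 181 and 1073 in controls 1 to 3 and 347, 733 and 299 in forskolin 1 to 3. These values lay between 60.7 (forskolin 3) and 104 (forskolin 2) times the SD of the empty spots, so the probe was bright in both groups. The 5 spots lay close together, from 807 to 1064 in control 1, where they spread most, and from 172 to 186 in control 2. Probes differ in how well they bind, so their signals are given side by side and not as levels relative to each other. The highest signal of another member was 39.1 (miR-541), 8.65 (miR-376b) and 60.4 (miR-494) in the controls, and 12.4 (miR-379), 56.5 (miR-379) and 30.7 (miR-377) in the forskolin samples. The authors' deposited table listed miR-329 at 721, 801 and 416 in the controls and 382, 490 and 301 in the forskolin samples, and every other member at 43 or below. miR-362-3p, the probe with the same seed, gave 9.30, 2.21 and 38.8, then 1.88, 27.2 and 3.21, and was detected in forskolin 2 only. miR-574-3p, whose target shares the run of 9 bases with miR-329, was detected in all 6 samples. A probe for the other arm of the miR-329 hairpin was not analysed here.

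The comparison of forskolin with control was tested for the 167 probes that passed in every control or in every forskolin sample, and miR-329 was the only member among them. Its normalized log2 intensity was 9.53, 9.74 and 8.99 in controls 1 to 3 and 8.88, 9.14 and 8.37 in forskolin 1 to 3. The groups overlapped, with forskolin 2 above control 3, while 23.4% of the tested probes had groups that did not overlap. The means were 9.42 ± 0.39 and 8.80 ± 0.39 (SD, n = 3 each). With the dye as a term, the fitted log2 fold change in limma was -0.61 (SE 0.32, 95% interval from -1.37 to 0.14, adjusted p = 0.379). By that test 0 of 1 tested member passed, also at an unadjusted p under 0.05, which 19.2% of the tested probes reached, while 10 of the 167 tested probes (5.99%) passed after adjustment and 3.59% did so as lower. An exact permutation test of the plain difference gave a two-sided p of 0.20, where the smallest that 3 against 3 allows is 0.10. The median log2 fold change of the tested probes was -0.01.

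**Figure D4:**
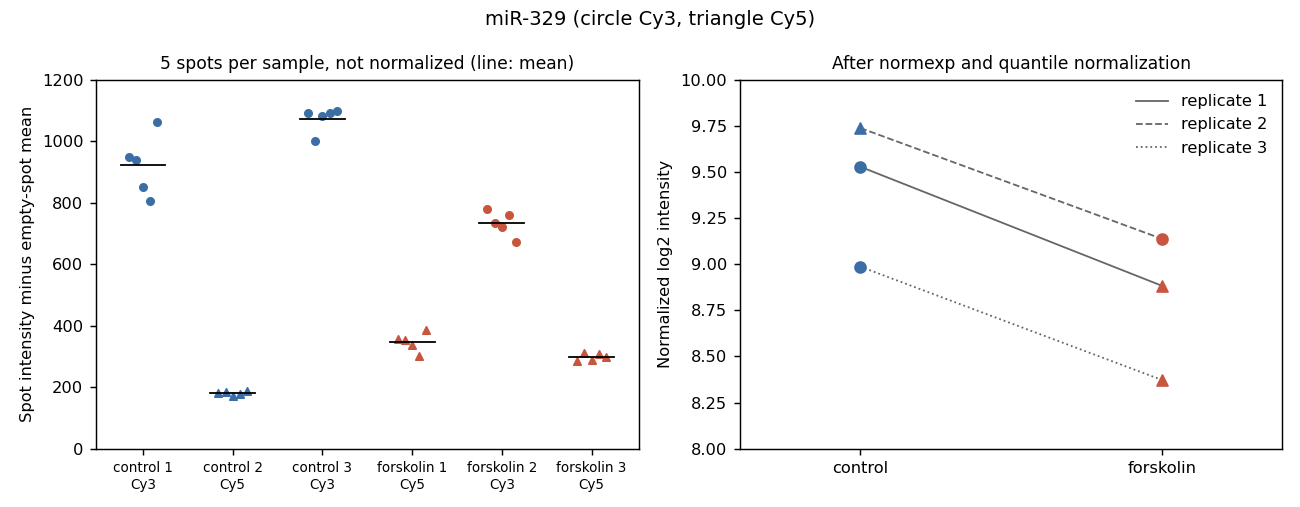
Left, the 5 spots of miR-329 in each sample as intensity minus the empty-spot mean, with a line at their mean and no normalization. Right, its normalized log2 intensity in control and forskolin samples, with lines joining samples of the same replicate number. The 3 lines run almost parallel, with differences of -0.64, -0.60 and -0.61.

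Samples of the same replicate number deviated together, as given with the processing, and miR-329 was lower with forskolin in 3 of 3 such pairs. The differences were -0.64, -0.60 and -0.61 (log2). Of all tested probes, 25.7% were lower in 3 of 3 pairs. When the model held the replicate block and no dye term, limma gave -0.62 (SE 0.13, adjusted p = 0.0379), and miR-329 was then among 24 of 167 probes called (14.4%). With both the block and the dye the adjusted p in limma was 0.165, with 30 of 167 called (18%). With 6 samples that model leaves almost no residual variation for a single probe. The SE of miR-329 there (0.298) thus rests mainly on the variance that limma pools over probes. The estimate also moved with the only Cy5 control and the only Cy3 forskolin sample. Without control 2 it was -0.12 at an adjusted p of 0.941, and without forskolin 2 it was -1.11 at an adjusted p of 0.369. With no normalization between samples it was 0.13, where the median of the tested probes was 0.48.

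By Pearson correlation over the 6 samples, the tested probes most like miR-329 were miR-674* (0.974), miR-93 (0.961) and miR-674 (0.951). Their log2 fold changes were -0.63, -0.73 and -0.44, and none passed. The 6 points are the same 6 samples, and the correlations are a description.

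No member could be called when the filter on dim probes was dropped and all 599 probes were fitted. Of the 72 members, 34 lay above and 38 below 0, between -0.61 (miR-329) and 0.13 (miR-134) on the log2 scale, around a median of -0.003. Over all 599 probes 291 lay above and 308 below 0, also around a median of -0.003. In limma 0 of 72 passed after adjustment and 1 (miR-382*) at an unadjusted p under 0.05, while 1 of 599 probes (0.167%) passed after adjustment and 7.85% before it. With the replicate block and the dye 0 of 72 passed, as did 0 of 599, and 4 at an unadjusted p under 0.05 (miR-329, miR-376b, miR-379 and miR-341), beside 10.4% of all probes. Forskolin and control values did not overlap for 6 members, with miR-127, miR-376c, miR-379, miR-431* and miR-544 higher and miR-540-5p lower, which is 8.33% of the cluster, beside 10.7% of all probes. These fits hold members at 6.10 to 6.99 on the log2 scale apart from miR-329, where the offset of 50 shrinks every difference, so the small values do not bound the change of a miRNA that is there at a low level.

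**Figure D5:**
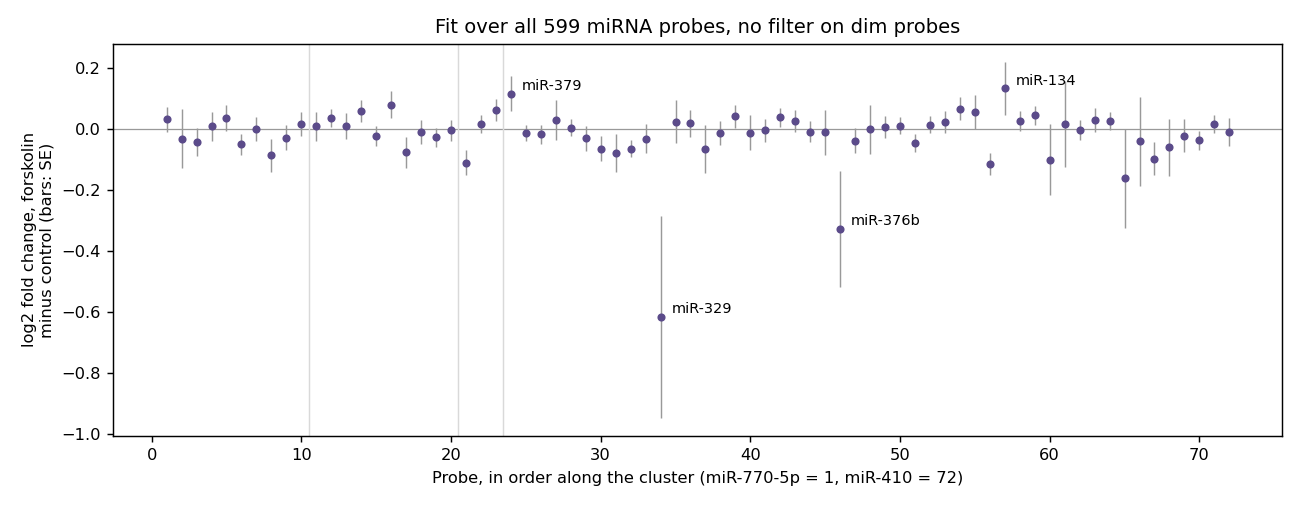
Fitted log2 fold change of each cluster probe, forskolin minus control, with its SE, by order along the cluster, from the fit over all 599 probes. miR-329 (-0.61) and miR-376b (-0.33) lie lowest, miR-134 (0.13) and miR-379 (0.12) highest, and no member passed the adjusted threshold. The value of miR-376b comes mainly from replicate 2, where control 2 rests on a single high spot. Its differences in replicates 1 to 3 were -0.104, -0.601 and -0.000341.

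Probes near the cluster and at other imprinted loci were read in the same way. The 4 probes of further miRNAs of the cluster, miR-679, miR-1188, miR-1193 and miR-1197, were detected in forskolin 2 only. Before the cluster on the same chromosome, 4 probes of miR-342 and miR-345 were read, and both arms of miR-342 were detected in all 6 samples. Both arms of miR-345 were dimmer: miR-345-3p was detected in 2 samples and miR-345-5p in 3, and neither was tested. The signals of miR-345-3p were 27.9, 3.85 and 51.3, then 9.69, 40.4 and 10.7. miR-342-3p, encoded before Dlk1 in an intron of Evl, gave 418, 102 and 951 in the controls and 517, 1400 and 757 in the forskolin samples. Its fitted difference was 0.80 on the log2 scale (limma, SE 0.29, adjusted p = 0.185). Of 9 probes at the imprinted Mest, Nespas, Igf2 and H19 loci, 5 were detected outside forskolin 2, 2 could be tested (miR-296-5p and miR-483) and 0 passed in either direction.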

How the data were processed

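Small RNAs of each culture were tailed, tagged, stained with 1 dye and assayed on arrays by LC Sciences, per the labels' protocols. Per the file headers, each array file gives the mean intensity of every spot, still with its background. The scanner is not given in the sources used here. A further deposited table lists an intensity for each miRNA. Over the 167 tested probes, which hold miR-329 as the only member, its log2 values correlated with the spot signals at 0.996 or above. How the authors normalized this table is unknown, and it served as an alternative.

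Spots (3968 per array, 5 per probe) had normexp background correction (offset 50), were averaged, and quantile-normalized on the log2 scale over 599 probes. The test was limma 3.58.1 in R 4.3.3 with treatment and dye as terms and Benjamini-Hochberg adjustment at 0.05 over 167 probes. P-values are two-sided. Because of the offset, fold changes of dim probes are understated. The steps were tested on simulated data.

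Deviations from the group means correlated between samples of the same replicate number at 0.397, 0.473 and 0.359, so the numbers were taken to pair the samples. This pairing comes from the data, and the labels give only the number. Each number held a Cy3 and a Cy5 sample, and whether these shared an array was not tested.

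The members, lists and tests were chosen with earlier results of these data known. Values in every sample are given for tested members, for members detected in at least 4 samples, and then up to 12 by the median of signal over SD. They are also given for the 2 lowest, for every probe of miR-127, miR-134, miR-379, miR-410 and miR-370, and for both ends of the cluster. miR-540-5p, miR-541 and miR-758 were added afterwards, for their values or their position.

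Alternatives were the replicate block, the dye term, normalization, background, filter, spot median, series table and leaving out samples.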

Additional observations from a re-analysis of the deposited data

How the results depend on the processing

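Over 21 alternative fits the log2 fold change of miR-329 was negative in 20, with adjusted p-values from 0.0379 to 0.941. It reversed to 0.13 with no normalization between samples. It passed the threshold only with the replicate block and no dye term (-0.62), which made the count of called members 1 in place of 0; the replicate block with the dye term left the count at 0. Leaving out 1 sample at a time gave -1.11 to -0.12, with 0 members called in each; these fits called 0 to 12 of the 167 probes, and 0 without control 2 or without forskolin 2. Without both samples of replicate 1 it was -0.61 and without both of replicate 3 it was -0.62, alternatives chosen after seeing the data; without both of replicate 2, dye and treatment cannot be told apart. The cause of these moves was not tested.

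Counts of detected members moved with the rule. Against the 300 dimmest probes they became 2 in control 1, 3 in forskolin 1 and 2 in forskolin 2. With the median of the spots as well, chosen after seeing the data, they were 1 in control 2, 2 in control 3, 3 in forskolin 1 and 2 in forskolin 2. At 2 SDs they were 2 in control 1, 7 in control 2, 13 in control 3 and 2 in forskolin 1. At 5 SDs they were 1 in control 2, 1 in control 3, 19 in forskolin 2 and 2 in forskolin 3. Signal over background limits all members except miR-329: a miRNA below these thresholds was not detectable, which does not show that it was absent.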
